A study of Mus musculus with 6 samples.

Results

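NF-kB subunits and their inhibitors were followed across long-term haematopoietic stem cells from mice labelled Irf8 knockout (Irf8-/-) and wildtype (Irf8+/+). The genes were listed by name: the subunit genes Nfkb1, Nfkb2, Rel, Rela and Relb, the cytoplasmic inhibitor genes Nfkbia, Nfkbib and Nfkbie, the nuclear inhibitor-like gene Nfkbiz, and Tnfaip3, which acts further upstream. Every probe set that names 1 of these genes alone was taken, which gave 19 of 45037 probe sets and 9 of the 10 genes. No probe set carried the name Nfkb1 in the annotation used, so Nfkb1 is not analysed here.

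The study hybridised RNA of 3 knockout and 3 wildtype samples to Affymetrix arrays of the mouse genome, 1 array a sample. Cells were sorted from bone marrow as lineage-negative, Sca-1+, c-kit+, CD48- and CD150+, and the labels place all samples at 3 weeks, without treatment. The sources used here do not give strain, sex, the Irf8 allele or whether animals were pooled. The labels call the replicates biological, but no source says that they came from separate mice, so p-values measure the spread between these samples. Values are log2 expression values as deposited, and differences are knockout minus wildtype on that scale.

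NF-kB is a family of dimeric transcription factors that wait in the cytoplasm, bound to IkB proteins. Signals from TNF, interleukin-1 and Toll-like receptors activate the IKK kinases, which mark the IkB proteins for degradation and let the dimers enter the nucleus. Among the genes switched on there are Nfkbia and Tnfaip3, which close the pathway again. In blood stem cells the pathway is known for its part in survival and in the response to infection.

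Since several of these genes are read by NF-kB itself, 1 promoter stretch that holds the kappaB consensus is shown first for each gene with a match. The promoter windows are RefSeq's (GRCm38.p6), each with 250 bases before and 50 bases after a transcript start, and 7 of the 9 genes had one. The consensus was searched on both strands, overlaps included. It was found in 5 of these 7 genes, in Nfkbia, Nfkbie, Tnfaip3, Rel and Nfkb2, and not in the windows of Rela and Nfkbib. Over all 27025 genes with a window, 9.55% had a match. Capitals mark the matched bases, and each run is written 5′ to 3′ along the gene.
Nfkbia (chr12:55492652-55492691, minus strand, 29 bases before the start): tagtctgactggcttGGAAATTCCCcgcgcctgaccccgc
Nfkbie (chr17:45555579-45555618, plus strand, 106 bases before the start): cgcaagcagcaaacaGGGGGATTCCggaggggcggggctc
Rel (chr11:23771036-23771076, minus strand, 2 overlapping matches): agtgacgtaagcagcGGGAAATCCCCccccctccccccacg
Nfkb2 (chr19:46304683-46304750, plus strand, 3 matches of which 2 overlap): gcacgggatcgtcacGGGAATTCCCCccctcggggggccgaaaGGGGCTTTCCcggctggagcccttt
Tnfaip3 (chr10:19015398-19015550, minus strand, 2 matches): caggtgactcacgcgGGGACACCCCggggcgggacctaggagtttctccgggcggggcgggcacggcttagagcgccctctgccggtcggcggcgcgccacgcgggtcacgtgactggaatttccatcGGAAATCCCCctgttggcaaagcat
Nfkb2 has 3 windows, all with a match, and the stretch printed is from the most upstream. The windows of its 2 downstream starts, which overlap, held 2 and 1 matches and are not printed. Tnfaip3 has a further window, at a downstream start, with 0 matches. A match is a description of the letters, and binding was not measured in these samples.

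The labels and the sort were checked on the arrays. Irf8 did not read lower in the arrays labelled knockout: its brighter probe set had 4.91, 6.39 and 6.50 in knockout arrays, against 4.98, 6.43 and 5.16 in wildtype arrays, and as the sources used here do not place its probes relative to the deletion, Irf8 checks nothing. Kit, the sorted receptor, read 8.09 to 10.46 in knockout and 9.38 to 9.76 in wildtype arrays. Slamf1, which encodes CD150 and is selected for, read 9.02, 8.49 and 4.71 in knockout arrays, against 5.97, 9.11 and 6.63 in wildtype arrays, with its lowest value on knockout replicate 3. On that array the 13 measured stem cell markers had a median deviation of -1.17 from their wildtype means, the lowest of the 6 arrays. Of these 13 markers 4 had a higher and 9 a lower mean in knockout. The groups did not overlap in 2 of them, both lower in knockout, or 15.4%, against 10.9% of all genes. Cd48, which the sort selects against, read 7.60, 9.42 and 3.55 in knockout arrays, against 4.54, 4.31 and 3.13 in wildtype arrays. On average over the arrays 17 of 23 measured neutrophil and granule genes exceeded 5.81, the median level of all genes, and their mean level ran from 7.44 to 9.71 in knockout arrays, with the top value in knockout replicate 3, and from 6.00 to 6.91 in wildtype arrays. The neutrophil genes Mmp8, Cxcr2, Itgam and Stfa2l1 stayed below that median on all 6 arrays. Of the 23 genes 21 had a higher and 2 a lower mean in knockout. The groups did not overlap in 6 of them, all higher in knockout, or 26.1%, against 10.9% of all genes. Knockout replicate 3 also had the lowest mean correlation with the other arrays across genes, 0.845. In such bulk samples fewer cells of a type and less RNA per cell cannot be told apart.

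Taken as a family, the NF-kB genes had no shared direction. Of the 19 probe sets 10 had a higher and 9 a lower mean in knockout, and the median difference was 0.01, against 0.06 over all probe sets. With limma and Benjamini-Hochberg adjustment 0 of the 19 passed the threshold of 0.05, as did 0% of all 45037, and their adjusted p ran from 0.91 to 1.00. At an unadjusted p under 0.05 there were 2 of the 19, where all probe sets gave 4.70%. The groups did not overlap in 2 probe sets, both lower in knockout, and in 0 that were higher. Over all probe sets the share without overlap was 4.23% lower and 6.66% higher, or 10.9% in all, and the members' 10.5% lay near it. With 1 probe set a gene, the brightest, 5 of 9 genes had a higher and 4 a lower mean, the median difference was 0.03, and 0 passed, as did 0% of all 18193 genes; 1 member, Nfkbie, had an unadjusted p under 0.05.

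**Figure D1:**
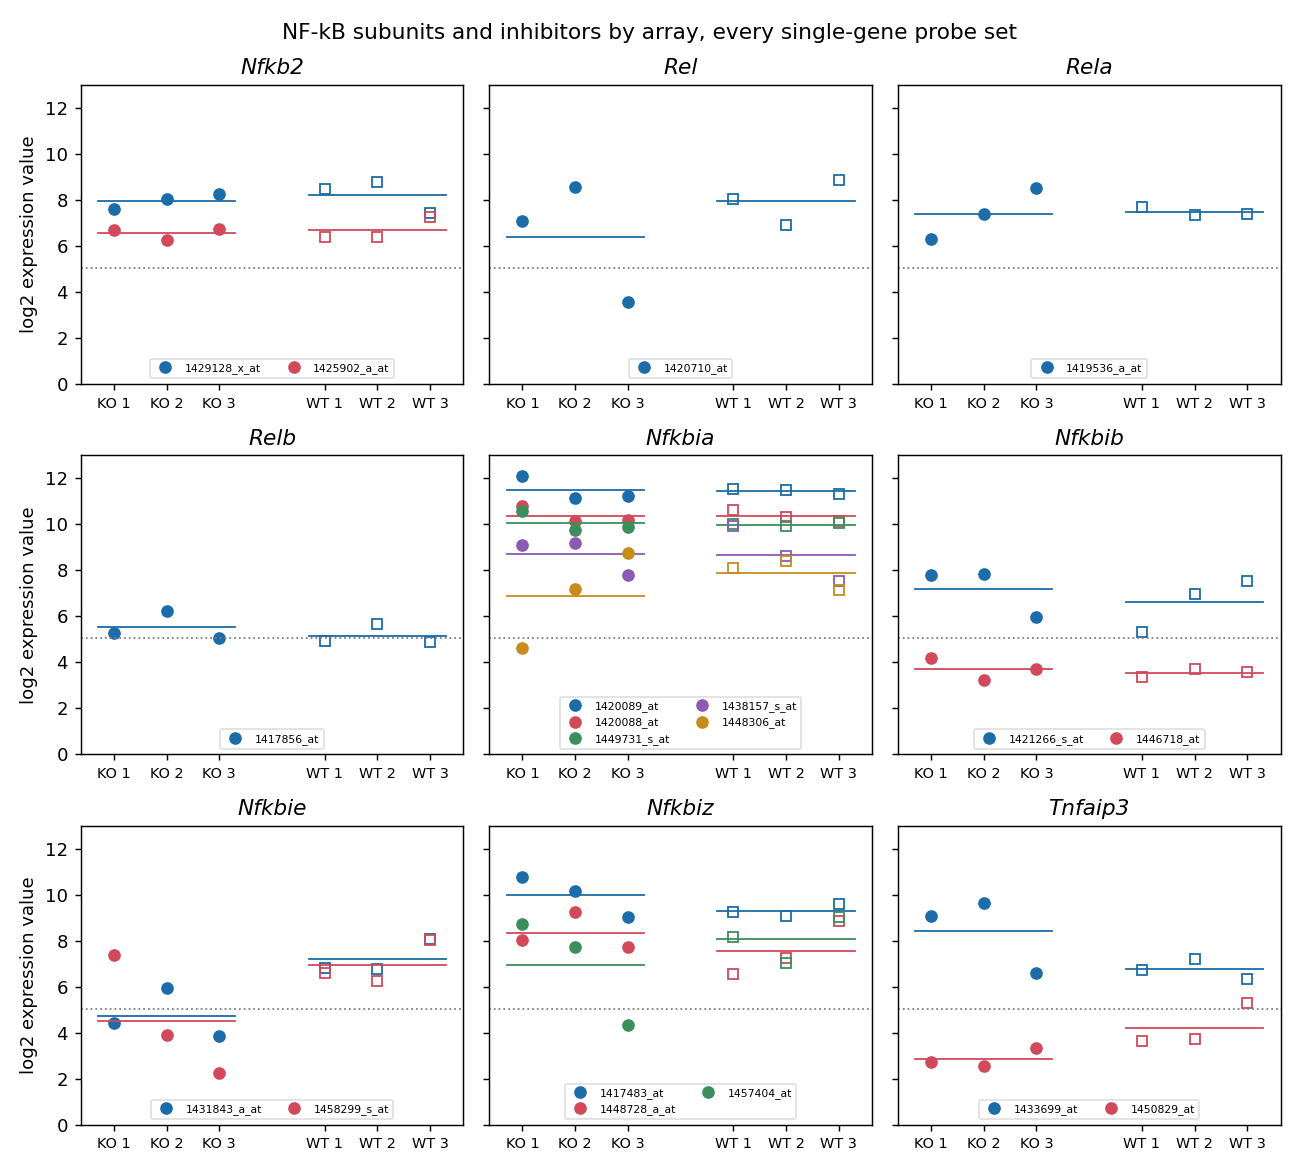
Log2 expression value (y axis) of every member probe set on each array, with knockout (KO, filled circles) left of wildtype (WT, open squares), group means as lines and the median level of all probe sets, 5.04, dotted. The Nfkbia probe sets 1420089_at, 1420088_at and 1449731_s_at lie level in both groups, whereas Nfkbie lies lower in all but 1 knockout value.

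Nfkbia, the main feedback inhibitor of NF-kB, was bright and level between the groups in most of its probe sets. Its brightest probe set, 1420089_at, read 12.09, 11.15 and 11.24 in knockout arrays, against 11.54, 11.50 and 11.33 in wildtype arrays. The groups overlapped, and the difference of 0.03 had a 95% confidence interval from -0.63 to 0.70, within 1.62-fold in either direction at most. The probe sets 1420088_at and 1449731_s_at gave 0.01 (-0.70 to 0.72) and 0.08 (-0.69 to 0.86). These 3 had the narrowest within-group spread among the bright members, with standard deviations of 0.30 to 0.37, against a median of 0.82 over the 22518 probe sets above the median level. In all 3 knockout replicate 1 was the highest array.

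The 2 other Nfkbia probe sets varied more from array to array. Probe set 1438157_s_at read 9.11, 9.21 and 7.80 in knockout arrays, against 9.91, 8.62 and 7.54 in wildtype arrays, a difference of 0.01 (-1.78 to 1.81). Probe set 1448306_at read 4.64, 7.21 and 8.77 in knockout arrays, against 8.13, 8.41 and 7.14 in wildtype arrays. Knockout replicate 1, the highest array in the other 3, was here the lowest by far, so the Nfkbia probe sets did not order the arrays alike.

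Nfkbie, which encodes IkB epsilon, a cytoplasmic inhibitor with a preference for Rel- and Rela-containing dimers, had the lowest difference of the family in both its probe sets. Probe set 1431843_a_at read 4.42, 5.94 and 3.86 in knockout arrays, against 6.81, 6.78 and 8.07 in wildtype arrays. All 3 knockout arrays lay below all 3 wildtype arrays, by 2.49 on average (SE 0.70, interval -4.17 to -0.80), or 5.60-fold. Knockout replicates 1 and 3 lay under the median level of all probe sets, 5.04, so this fold rests partly on dim values. Probe set 1458299_s_at read 7.41, 3.92 and 2.28 in knockout arrays, against 6.60, 6.26 and 8.03 in wildtype arrays, a difference of -2.43 (SE 1.31, interval -5.59 to 0.73). Here knockout replicate 1 lay among the wildtype arrays, and knockout replicates 2 and 3 lay under the median level.

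For Nfkbie the unadjusted p in limma was 0.0107 and 0.110 in the order given, and the adjusted p 0.906 for both. Without knockout replicate 3, the array with the highest neutrophil genes, the differences were -2.04 and -1.30. The groups of 1431843_a_at had no overlap with all arrays, so leaving an array out could not create any. Without knockout replicate 1 the difference of 1458299_s_at was -3.87. The part of other cells in this difference was not tested. Nfkbie was already known to stand out from earlier results of these data.

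Nfkbib, which encodes IkB beta, did not separate the groups. Its brighter probe set 1421266_s_at read 7.79, 7.83 and 5.96 in knockout arrays, against 5.34, 6.95 and 7.54 in wildtype arrays, a difference of 0.58 (-1.41 to 2.57). Its other probe set, 1446718_at, read between 3.24 and 4.17 on all arrays, under the median level of 5.04, and gave 0.15 (-0.52 to 0.82).

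Tnfaip3, a ubiquitin-editing enzyme that shuts off IKK signalling, gave opposite answers in its 2 probe sets. Probe set 1433699_at read 9.08, 9.66 and 6.58 in knockout arrays, against 6.75, 7.22 and 6.32 in wildtype arrays. Knockout replicates 1 and 2 lay above every wildtype array, and knockout replicate 3 lay among them. The difference was 1.67 (SE 0.88, interval -0.44 to 3.79, adjusted p = 0.906 in limma). Without knockout replicate 3 it was 2.60 (SE 0.54), at an unadjusted limma p of 0.00446 (adjusted p = 0.810), and without knockout replicate 2 it was 1.06. Knockout replicate 3 was the lowest knockout array, so leaving it out had to raise the difference. With any other array left out the unadjusted limma p lay between 0.127 and 0.287.

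The dim Tnfaip3 probe set 1450829_at read 2.72, 2.57 and 3.32 in knockout arrays, against 3.65, 3.72 and 5.29 in wildtype arrays. Knockout lay below wildtype without overlap, by 1.35 (SE 0.48, interval -2.51 to -0.19, unadjusted p = 0.0289 and adjusted p = 0.906 in limma). Without wildtype replicate 3 the difference was -0.82. All but the value of that array lay under the median level of all probe sets, where RMA, the authors' summary method, compresses differences.

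**Figure D2:**
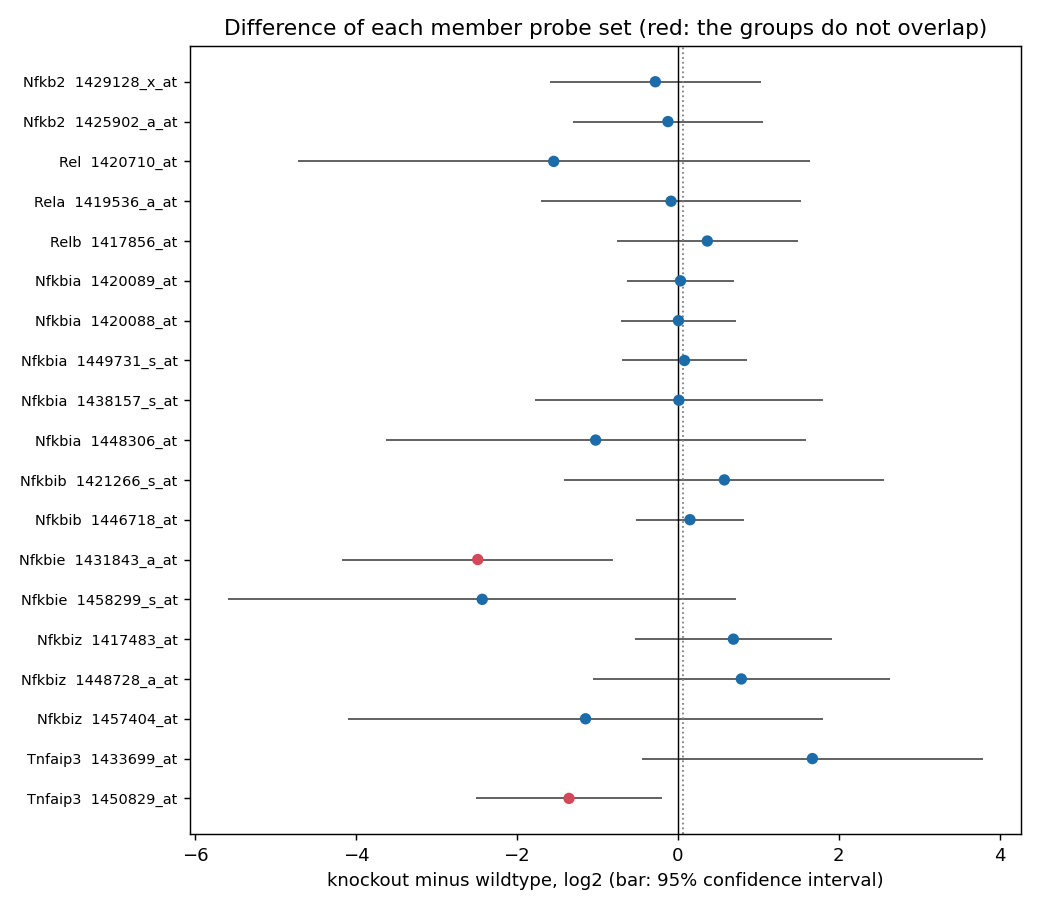
Knockout minus wildtype difference (x axis, log2) of the 19 member probe sets with limma's 95% confidence interval, red where the groups do not overlap, and the median over all probe sets dotted. The intervals of 17 probe sets cross 0, and the exceptions are Nfkbie 1431843_a_at and Tnfaip3 1450829_at, neither of which passed after adjustment.

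Nfkbiz encodes IkB zeta, a nuclear member of the IkB family that works with NF-kB at secondary response genes. Its brightest probe set 1417483_at read 10.78, 10.18 and 9.05 in knockout arrays, against 9.24, 9.07 and 9.62 in wildtype arrays. Knockout replicates 1 and 2 lay above every wildtype array and knockout replicate 3 below every one, and the difference was 0.69 (-0.53 to 1.91). Without knockout replicate 3 it was 1.17 (SE 0.37), at an unadjusted limma p of 0.0241 (adjusted p = 0.945), and without knockout replicate 1 it was 0.31. With any array other than knockout replicate 3 left out the unadjusted limma p lay between 0.212 and 0.564.

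The other Nfkbiz probe sets differed from it. Probe set 1448728_a_at gave 0.79 (-1.06 to 2.64), with 8.04, 9.28 and 7.75 in knockout arrays, against 6.58, 7.27 and 8.86 in wildtype arrays. Probe set 1457404_at gave -1.15 (-4.10 to 1.80), with 8.74, 7.75 and 4.33 in knockout arrays, against 8.17, 7.03 and 9.05 in wildtype arrays. The low value of knockout replicate 3 set that sign, and without this array the difference was 0.16.

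Among the subunits, Rela, the main transcription-activating partner of the classical pathway, had nearly equal group means. It read 6.29, 7.39 and 8.53 in knockout arrays, against 7.71, 7.35 and 7.41 in wildtype arrays, a difference of -0.08 (-1.70 to 1.53). Wildtype arrays lay close together (SD 0.19), and knockout arrays spread to both sides of them (SD 1.12).

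Rel, the c-Rel subunit prominent in blood cells, read 7.07, 8.56 and 3.56 in knockout arrays, against 8.02, 6.91 and 8.88 in wildtype arrays. Knockout replicate 3 alone lay far below the rest, and the difference of -1.54 (SE 1.32, interval -4.72 to 1.64) was -0.12 without it and -2.62 without knockout replicate 2. Rel had 1 probe set among those that name 1 gene, so this low value was read once here. On that array Nfkbie 1458299_s_at and Nfkbiz 1457404_at also lay low, at -4.69 and -3.76 from their wildtype means, whereas Rela lay at 1.05.

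Nfkb2 encodes a precursor that holds Relb back until it is processed into a DNA-binding subunit. Its probe set 1429128_x_at read 7.60, 8.03 and 8.24 in knockout arrays, against 8.48, 8.80 and 7.42 in wildtype arrays, a difference of -0.28 (-1.59 to 1.03). Its probe set 1425902_a_at gave -0.12 (-1.30 to 1.05). Wildtype replicate 3 was the lowest array in the first and the highest in the second. Relb, the partner of the alternative pathway, read 5.29, 6.25 and 5.06 in knockout arrays, against 4.94, 5.68 and 4.87 in wildtype arrays, a difference of 0.37 (-0.76 to 1.50).

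**Figure D3:**
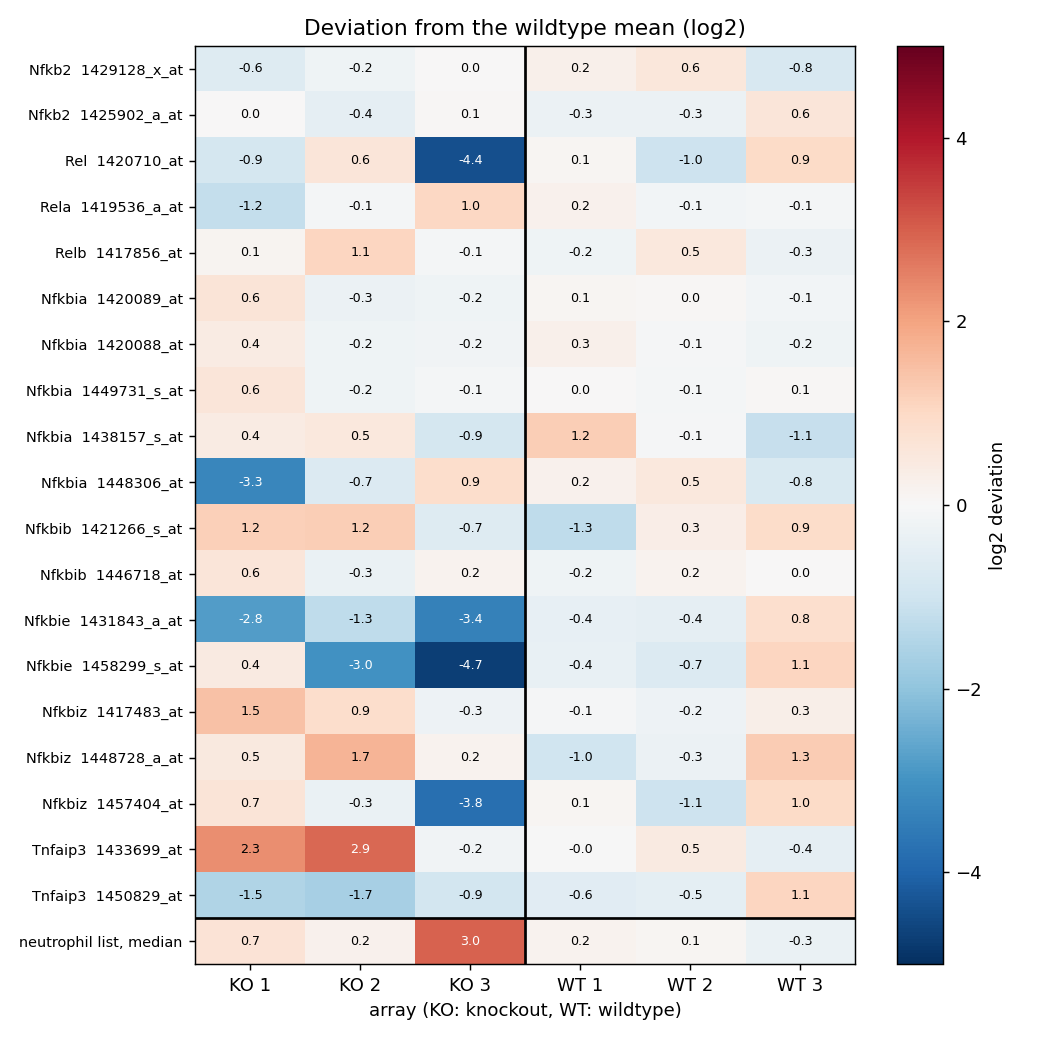
Deviation of each member probe set from its wildtype mean (log2, colour and number) on the knockout (KO, left) and wildtype (WT, right) arrays, with the median deviation of 23 neutrophil and granule genes in the last row. Knockout replicate 3 holds the lowest values of Rel, Nfkbie and Nfkbiz 1457404_at, and also the top neutrophil median, 2.95.

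Several members varied widely between arrays of 1 group. The median within-group standard deviation of the 17 member probe sets above the median level was 0.92, against 0.82 over all probe sets above it, and the median size of a difference was 0.58, against 0.48. Of the 6 members with several probe sets, Nfkbia, Nfkbiz and Tnfaip3 had differences of both signs, 50%, and over all 9010 such genes the share was 58.9%. Knockout replicates 2 and 3 and wildtype replicate 3 were each the lowest array in 5 of the 19 probe sets, and over all probe sets they were the lowest in 18.43%, 14.07% and 16.55%. Wildtype replicate 2 was the lowest in 0, against 15.01% over all. Knockout replicate 3 was the highest array in 2 of the 19, against 29.9% over all. These shares of lowest and highest arrays are over bright and dim probe sets alike, whereas 17 of the 19 members lie above the median level.

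The genes whose levels ran most like a member's over the 6 arrays are given as a description, since with 6 arrays many genes reach such values. Nfkbia (1420089_at) ran most like Rbm42, Osbpl9, Fyco1, E4f1 and BC031181, with Pearson r between 0.973 and 0.981, and 0.902% of genes above the median level had an r over 0.9. Nfkbie (1431843_a_at) ran most like Marveld1, Kif16b, Frmd6, Ptbp3 and Atxn7l3b, with r between 0.974 and 0.988, and 1.13% had an r over 0.9. The 5 genes most like Nfkbie differed by -0.87 (Ptbp3) to -4.64 (Kif16b), and that these are below 0 follows from their choice by likeness to a probe set that was lower in knockout.

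The rest of the pathway had differences of both signs as well, and with limma 0 genes of 5 further lists passed after adjustment. The lists overlap in a few genes. At an unadjusted p under 0.05 the share over all 18193 genes was 4.84%, and the groups did not overlap in 6.67% with higher and 4.25% with lower values in knockout. Among 14 other IkB-like proteins and cofactors the median difference was -0.03, against 0.07 over all genes, with 6 genes above and 8 below 0, and 0 at an unadjusted p under 0.05. The groups did not overlap in 1 of them, Commd1, lower in knockout, or 7.14%, against 10.9% of all genes. Commd1, which promotes the removal of Rela from chromatin, read 7.98, 8.31 and 7.50 in knockout arrays, against 8.99, 8.43 and 9.23 in wildtype arrays, a difference of -0.96 (SE 0.51). Pias1, a SUMO ligase, differed by 0.96 (SE 0.59), the deacetylase Sirt1 by -1.13 (SE 0.85) and the coactivator Crebbp by 0.38 (SE 0.38).

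The IKK complex and the steps before it comprised 32 measured genes, with a median of -0.11, 15 above and 17 below 0, and 0 at an unadjusted p under 0.05. The groups did not overlap in 1 gene, lower in knockout, or 3.13%, against 10.9% of all genes. Btrc, the ubiquitin ligase subunit that recognises phosphorylated IkB, read 4.61, 6.97 and 8.76 in knockout arrays, against 9.13, 9.35 and 8.69 in wildtype arrays, a difference of -2.27 (SE 1.04). Map3k14, the kinase that starts the alternative pathway, read 7.48, 8.93 and 5.75 in knockout arrays, against 4.42, 6.65 and 5.22 in wildtype arrays, a difference of 1.95 (SE 0.94). The groups overlapped in both. Rbck1, a part of the linear ubiquitin ligase, differed by -1.05 (SE 0.64), and Ikbkg, the regulatory subunit of IKK, by 1.12 (SE 0.75).

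Among 19 other negative regulators the median was -0.11, and the groups did not overlap in 1 gene that was higher and 3 that were lower. That was 21.1% of the list, against 10.9% of all genes. At an unadjusted p under 0.05 there were 1 higher and 1 lower gene. The higher was Socs1, a suppressor of cytokine signalling named after its values were seen, which read 5.72, 5.36 and 5.30 in knockout arrays, against 4.27, 4.34 and 4.76 in wildtype arrays, all under the median gene level of 5.81, a difference of 1.004 (SE 0.27, adjusted p = 0.887 in limma). The lower was Rnf11, a partner of Tnfaip3 in its ubiquitin-editing complex, which read 6.63, 3.80 and 5.77 in knockout arrays, against 6.95, 8.69 and 8.68 in wildtype arrays, a difference of -2.71 (SE 0.88, adjusted p = 0.887 in limma). Peli1, a ubiquitin ligase of Toll-like receptor signalling, was lower without overlap too, with a mean of 7.65 in knockout and 9.08 in wildtype arrays and a difference of -1.42 (SE 0.65). Usp18, an interferon-induced protease, differed by -2.43 (SE 1.48), with a wildtype range from 3.09 to 9.50, and Otulin, which cuts linear ubiquitin chains, by -0.96 (SE 0.60).

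Among 34 receptors and ligands the median was -0.04, with 4 genes higher and 2 lower in knockout without overlap. That was 17.6% of the list, against 10.9% of all genes. Of the higher genes, Cd14, Lta and Tnfsf13b lay under the median gene level on all arrays. An unadjusted p under 0.05 was reached by 1 higher gene, Cd14, and 1 lower gene, Nod1. Cd14, a co-receptor for bacterial lipopolysaccharide named after its values were seen, read 4.97, 4.48 and 4.95 in knockout arrays, against 4.19, 4.31 and 4.19 in wildtype arrays, all under the median gene level, a difference of 0.57 (SE 0.23, adjusted p = 0.887 in limma). Nod1, a cytosolic sensor of bacterial peptidoglycan that signals to NF-kB, read 6.47, 5.85 and 5.53 in knockout arrays, against 8.51, 7.96 and 8.56 in wildtype arrays. The difference of -2.40 (SE 0.50) had an unadjusted limma p of 0.00223 (adjusted p = 0.880). Ltbr, the lymphotoxin receptor of the alternative pathway, read 7.39, 6.52 and 6.57 in knockout arrays, against 5.63, 6.12 and 5.71 in wildtype arrays, a difference of 1.01 (SE 0.43, unadjusted p = 0.0538 in limma). Il18, a cytokine of the interleukin-1 family, differed by -1.23 (SE 0.78) and the TWEAK receptor Tnfrsf12a by -0.68 (SE 0.43).

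The 46 measured genes reported as NF-kB targets had a median of 0.08, with 26 above and 20 below 0. The groups did not overlap in 1 gene that was higher and 3 that were lower in knockout, or 8.70%, against 10.9% of all genes. An unadjusted p under 0.05 was reached by 1 higher and 1 lower gene. Cd69, an early activation antigen, read 9.59, 8.77 and 9.12 in knockout arrays, against 8.15, 7.99 and 7.68 in wildtype arrays, a difference of 1.22 (SE 0.48). Psmb9, an immunoproteasome subunit also induced by interferon, read 9.67, 10.17 and 10.09 in knockout arrays, against 10.79, 11.00 and 11.18 in wildtype arrays, a difference of -1.01 (SE 0.29). The chemokine Ccl3 differed by 1.48 (SE 0.73) and the interferon-inducible chemokine Cxcl10 by -2.02 (SE 0.89). Each of these 4 had an adjusted p of 0.887 in limma.

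**Figure D4:**
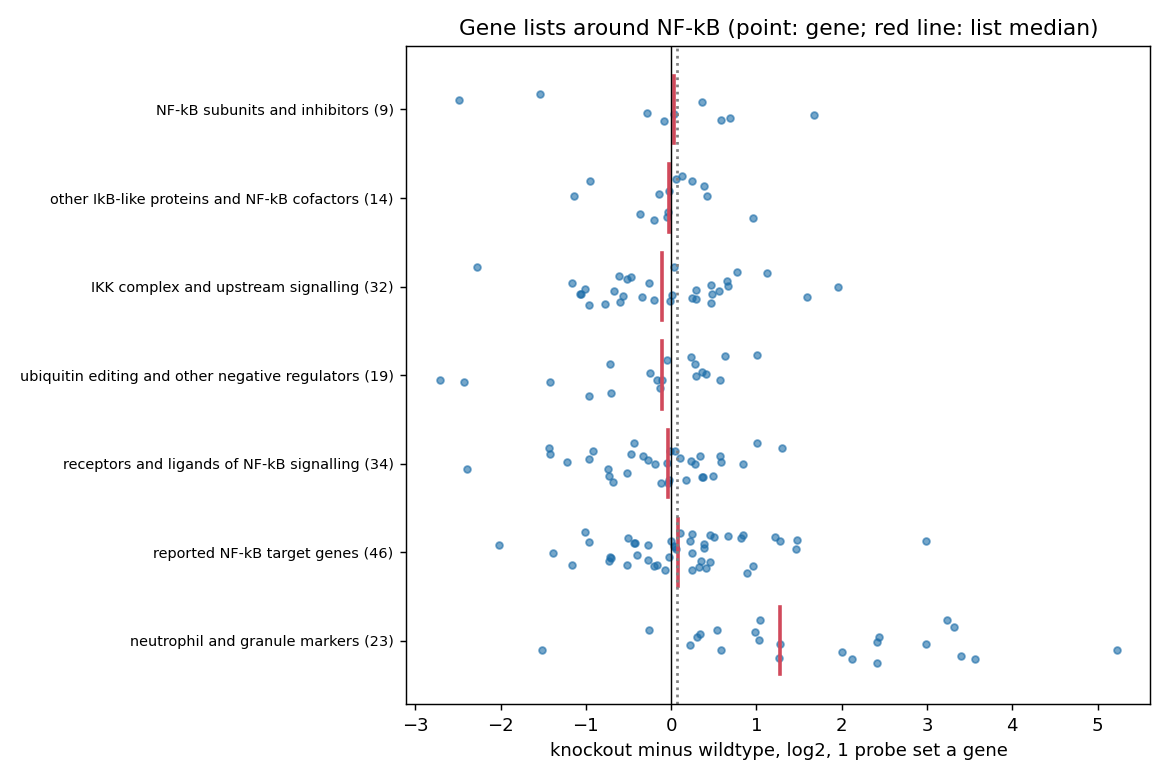
Knockout minus wildtype difference (x axis, log2) of each gene of the NF-kB lists and of the neutrophil list, 1 point a gene, with list medians in red, the number of measured genes in brackets and the median over all genes dotted. The NF-kB lists centre between -0.11 and 0.08, and the neutrophil list at 1.28, which was 0.70 without knockout replicate 3 and 2.02 without knockout replicate 1.

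Without knockout replicate 3, 4 of the 19 member probe sets had an unadjusted p under 0.05, against 4.82% of all probe sets, and 0 passed after adjustment. With any other single array left out this number was 1 or 2. The 4 were Nfkbie 1431843_a_at and Tnfaip3 1450829_at, lower in knockout, and Nfkbiz 1417483_at and Tnfaip3 1433699_at, higher in knockout. In the 5 pathway lists and in the members, the number of genes past the threshold was 0 without any 1 of the 6 arrays.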

How the data were processed

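Per the labels' protocols, RNA of sorted stem cells was amplified over the whole transcriptome, biotin-labelled and hybridised to 6 arrays. The table the authors deposited holds 1 log2 value for each probe set on each array. Per the submitters' processing notes it was made with RMA, Affymetrix Expression Console and Partek, whose versions and settings are not stated. RMA compresses differences of dim probe sets. The log2 scale was read from the values, and array medians ran from 4.85 to 4.96. No filter on level was applied.

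Genes were named from the platform annotation: 34945 probe sets named 1 gene, 932 several and 9160 none. Of those with 1 gene 34741 matched RefSeq by Entrez number and 0 symbols changed. For gene lists each gene was represented by its brightest probe set on average, for 18193 genes. The genotypes were compared with limma 3.58.1 under R 4.3.3 (lmFit, then eBayes with trend, two-sided, Benjamini-Hochberg over all probe sets or genes). The number of arrays limits the precision: the median standard error was 0.44 over all probe sets. It was 0.65 over those above the median level and 0.70 over the 17 member probe sets above it. The fit was tested on simulated data with independent normal values, in which no array stood apart as knockout replicate 3 did here. Members and lists were chosen with earlier results of these data known. The text names every member probe set; up to 4 genes per pathway list with the smallest unadjusted p and a group mean above the median gene level; 5 genes most like Nfkbia and 5 most like Nfkbie; and, from marker lists, the brightest and most different, of which Cd48 is printed. Irf8, Kit, Slamf1, Socs1, Cd14, Lta, Tnfsf13b and the neutrophil genes below the median level were named beyond this rule. Samples with the same replicate number did not deviate together (correlations -0.02, -0.01 and -0.01). Python 3.11.15, pandas 2.3.3 and matplotlib 3.10.9 prepared tables and figures.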

Additional observations from a re-analysis of the deposited data

How the results depend on the processing

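Over 14 alternatives for probe sets and 15 for genes (moderation, array weights, scaling, a filter on level, choice of probe set, replicate block, each array left out), 0 of 398 recomputed member differences passed the threshold. The lowest adjusted p was 0.651 in limma, and 370 kept their sign. Moderation, the replicate block, the filter on level and the restriction to single-gene probe sets leave a difference unchanged, so they could not turn a sign. Most gene values also repeat those of the brightest probe set, so the count of kept signs does not measure stability. With the replicate block 0 member probe sets and 0 genes passed, as without it. Over all genes 1 passed, Zfp229 (named after its values were seen), at an adjusted p of 0.0470 both after centring arrays on their medians and with probe sets averaged, against 0.0719 in the report's fit. The median difference of member genes lay between -0.03 and 0.28 when arrays were left out and at -0.08 with the mean of probe sets. Signs turned as follows. With arrays centred on their median Nfkbia 1420088_at gave -0.00698 and 1438157_s_at -0.00173. With the mean of probe sets Nfkbia gave -0.18, against 0.03 with the brightest. Tnfaip3 and Nfkbiz kept their sign with that mean but fell to 0.16 and 0.11, from 1.67 and 0.69 with the brightest. With single arrays left out the ranges were -0.27 to 0.17 (Nfkb2 1425902_a_at), -0.69 to 0.00401 (1429128_x_at), -0.65 to 0.47 (Rela), -0.26 to 0.20 (Nfkbia 1420089_at), -0.19 to 0.14 (1420088_at), -0.17 to 0.24 (1449731_s_at), -0.56 to 0.62 (1438157_s_at), -1.97 to 0.10 (1448306_at), -0.0562 to 1.20 (Nfkbib 1421266_s_at), -0.0786 to 0.39 (1446718_at) and -2.04 to 0.16 (Nfkbiz 1457404_at). Nfkbie 1431843_a_at kept its sign, between -3.09 and -2.04, as did 1458299_s_at, between -3.87 and -1.30, Tnfaip3 1433699_at, between 1.06 and 2.60, Tnfaip3 1450829_at, between -1.64 and -0.82, Nfkbiz 1417483_at, between 0.31 and 1.17, and Rel, between -2.62 and -0.12. For Nfkbie 1431843_a_at and Tnfaip3 1450829_at, whose groups did not overlap, leaving an array out could not turn the sign.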
